A study of Mus musculus with 6 samples.

Results

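Integrins are the receptors by which an epithelial cell holds on to its matrix. Each receptor joins 1 alpha and 1 beta chain, and the pair sets the ligand: the Itgb1 chain pairs with Itga2 to bind collagen and with Itga3 or Itga6 to bind laminin, the Itgb4 chain pairs only with Itga6 and anchors hemidesmosomes, and the Itgav chain pairs with Itgb1, Itgb5 or Itgb6 to bind ligands such as fibronectin and vitronectin. The receptor made of Itgav and Itgb6 is known in the lung as an activator of latent TGF-beta on alveolar epithelium. These 8 genes were taken as matrix rows by symbol, 8 of 31055 features, and all 8 were found once. Alveolar type II (ATII) cells make surfactant and renew the alveolus, alveolar type I (ATI) cells form the thin gas exchange surface, and cells rich in the keratins Krt8 and Krt18 are known as a transitional state that arises between them after injury and in lung tumours.

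Neoplastic cells were sorted from lung tumours of 6 mice and their transcripts were counted cell by cell with the 10x Chromium 3′ chemistry, in which a unique molecular identifier (UMI) marks each captured transcript. All mice carried Lkb1XTR/XTR and a Rosa26LSL-tdTomato reporter. The XTR allele is a gene trap that, after Cre, cuts the Lkb1 transcript (gene symbol Stk11) short and reports with GFP, and that a FLPo recombinase removes. Tumours were started by lentiviral Cre given into the trachea, grew for 20 weeks and were exposed to tamoxifen, in doses of 4 mg, or to vehicle over 2 weeks. The 3 restored mice carried FLPo-ERT2, a recombinase made active by tamoxifen, on the other Rosa26 allele and received tamoxifen. The 3 non-restored mice comprised 1 without FLPo-ERT2 that received tamoxifen, 1 without it that received vehicle, and 1 with FLPo-ERT2 that received vehicle. Mice were 6 to 12 weeks old when tumours were started. The sort removed cells with CD45, CD31, F4/80 or Ter119 on their surface.

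The files used here tie no cell to a mouse, and a comparison between the groups of mice was not analysed here. The pooled matrix counted as 1 sample with no replicates, no difference below has a test, and every 95% interval covers counting error only. Of 16017 cells, 12183 had at least 500 detected genes and at most 20% mitochondrial UMIs, with a median of 19348 UMIs. Gates were set in UMIs per 10000. The ATII gate (Sftpc at least 500, Hopx under 2, Krt8+Krt18 under 50) held 6975 cells with a median of 21660 UMIs, the ATI gate (Hopx at least 15, Krt8+Krt18 under 50) held 956 cells with a median of 11796 UMIs, and the keratin-high gate (Krt8+Krt18 at least 50) held 1183 cells with a median of 23490 UMIs. The gate names were checked against markers that the gates did not use. All 9 ATII markers were highest in the ATII gate and all 8 ATI markers in the ATI gate, and 6 of 7 transitional markers were highest in the keratin-high gate. The basal markers Krt5 and Trp63 had 0 UMIs in the keratin-high gate. A level in CPM is the summed UMIs of a gene in a gate, scaled to 1000000 UMIs of that gate in all, which gives deep cells more weight. Reference gates of 78 immune, 126 endothelial and 241 fibroblast cells had a sum of the markers of that type past its minimum, with Sftpc under 500 and Krt8+Krt18 under 50. In the alveolar gates, 9 ATII, 1 ATI and 2 keratin-high cells passed such a sum and were kept. In the ATII, ATI and keratin-high gates the 5 immune markers together reached 8.07, 2.77 and 4.96 CPM, against 7864 CPM in the immune gate.

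The 8 genes lie on 5 autosomes in the mm10 (GRCm38) annotation of GENCODE release M21. Itga2 spans chr13:114833081-114932100 on the minus strand, Itgb6 chr2:60598292-60722643 on the minus strand, and Itgb4 chr11:115974709-116008412 on the plus strand. Itga6 (chr2:71745616-71858416) overlaps 2 predicted genes on its own strand and 2 on the other, Itgav (chr2:83724397-83806916) 2 on the other strand and Itgb4 1 on the other strand. The other members, among them Itga3 (chr11:95044474-95076801), Itgb1 (chr8:128685654-128733200) and Itgb5 (chr16:33829665-33949338), overlap no annotated gene. Of the 8 genes, 6 had 8 promoters in the RefSeq table for GRCm38.p6, with 2 starts each for Itga3 and Itgb6, and Itga6 and Itgb4 are named only. The 250 bases before the start are shown for Itga2 and the outer start of Itgb6, the members that differed most from the ATII gate in the keratin-high and in the ATI gate, and for Itgb1, the partner of several alpha chains. Capitals mark matches on either strand to GGGCGG, the letters of the SP/KLF motif, or to GGAATG, those of the TEAD motif. TGANTCA, the AP-1 motif, was also searched, and no matches overlapped.

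Itga2, chr13:114932101-114932350, minus strand: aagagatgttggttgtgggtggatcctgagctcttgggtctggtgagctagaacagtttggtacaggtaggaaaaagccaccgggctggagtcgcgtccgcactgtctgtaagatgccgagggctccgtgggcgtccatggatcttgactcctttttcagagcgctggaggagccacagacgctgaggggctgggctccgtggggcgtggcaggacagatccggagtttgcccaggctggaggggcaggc

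Itgb6, chr2:60722604-60722853, minus strand: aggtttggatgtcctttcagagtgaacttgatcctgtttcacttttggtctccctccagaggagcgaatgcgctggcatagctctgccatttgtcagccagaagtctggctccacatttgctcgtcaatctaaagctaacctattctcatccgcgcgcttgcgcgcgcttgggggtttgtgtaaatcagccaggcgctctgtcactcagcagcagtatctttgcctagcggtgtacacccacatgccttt

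Itgb1, chr8:128685404-128685653, plus strand: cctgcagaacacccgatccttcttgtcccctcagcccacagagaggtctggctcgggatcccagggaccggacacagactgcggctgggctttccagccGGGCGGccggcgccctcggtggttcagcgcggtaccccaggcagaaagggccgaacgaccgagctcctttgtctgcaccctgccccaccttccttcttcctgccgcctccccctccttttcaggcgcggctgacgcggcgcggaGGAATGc

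The Itga2 and Itgb6 stretches held none of the 3 motifs, while Itgb1 held 1 match to GGGCGG and 1 to GGAATG. Of the promoters not shown, the outer start of Itga3 held 3 matches to GGGCGG and its inner start 1, Itgb5 held 3, and Itgav and the inner start of Itgb6 held none of the 3 motifs. Over the 32851 promoters of the table, 32.7% held GGGCGG, 12.6% held GGAATG and 6.75% held TGANTCA in the same window. A match is a description of the letters.

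All 8 integrin genes were at least 2-fold higher in the keratin-high gate than in the ATII gate. Of 8369 genes with at least 10 CPM in either gate, 14.5% were at least 2-fold higher and 5.17% at least 2-fold lower, and the median log2 ratio was 0.39 over all of them and 2.01 over the 8 members. Relative to that median gene the 8 log2 ratios ran from 0.97 for Itgb1 to 6.14 for Itga2. In the ATI gate against the ATII gate, 6 members reached 10 CPM, and 4 of them (Itga3, Itgb1, Itgb5 and Itgb6) were at least 2-fold higher and none lower, where 11.5% of all genes were higher and 5.52% lower. Relative to the median gene of this contrast, at a log2 ratio of 0.38, Itgb6 was at 3.77 and Itga6 at -1.15. The keratin-high gate exceeded the ATI gate at least 2-fold for Itga2, Itga6, Itgav and Itgb4, 4 of 8 members, and was lower for none, where 6.23% of all genes were higher and 4.18% lower. These 3 contrasts share gates, so their counts are not separate evidence. The members were chosen with earlier results of these data known, so the counts are a description. In keratin-high over ATII, Itga2, Itgb4, Itgb5 and Itgb6 reached 10 CPM only in the keratin-high gate. At ATII levels of 2.16, 0.737 and 4.87 CPM, reaching 10 CPM fixed a ratio past 2-fold for Itga2, Itgb4 and Itgb5. The same holds for Itgb5 in ATI over ATII and for Itga2 and Itgb4 in keratin-high over ATI.

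**Figure D1:**
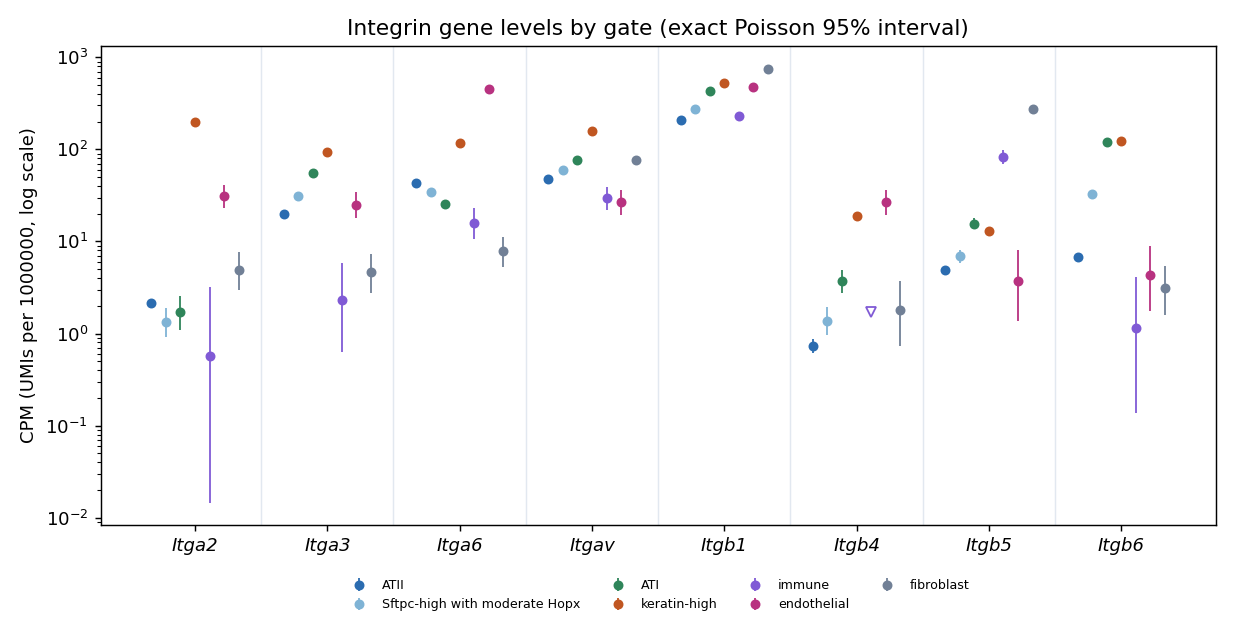
Level of each integrin gene in CPM (UMIs per 1000000, log scale) by gate, with exact Poisson 95% intervals; the open triangle is the upper interval bound where the immune gate held no UMI. The keratin-high gate lies above the ATII gate for all 8 genes, while the ATI gate lies near it for Itgb6 and near the ATII gate for Itga2.

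Among the collagen and laminin alpha chains, Itga2 differed most. Itga2 stood at 199.7 CPM in the keratin-high gate (95% interval 195 to 205, 6123 UMIs), at 2.16 CPM in the ATII gate (1.94 to 2.40) and at 1.72 CPM in the ATI gate (1.09 to 2.59). The measured levels differed 92.4-fold between the keratin-high and the ATII gate and 116-fold between the keratin-high and the ATI gate, and the ATII and ATI intervals overlapped. The immune gate had 1 UMI in all, 0.572 CPM (0.0145 to 3.19). Endothelial cells had 31.2 CPM and fibroblasts 4.92 CPM. The ATII and ATI levels lay within the immune interval and under the fibroblast level, so the size of these folds rests on levels not told apart from background. Over the alternatives run, the log2 ratio ranged from 6.14 to 8.47 for keratin-high over ATII and from 6.53 to 8.60 for keratin-high over ATI. The few Itga2 UMIs of the ATII gate sat in few cells: 145 of its 6975 cells had any, and the 70 cells with the most held 78.5% of them. The ATI over ATII ratio of Itga2 was 0.798 (0.499 to 1.22) and turned above 1 when those cells, or the cells with the most UMIs in all, were left out.

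Itga3 stood at 19.7 CPM in the ATII gate (19.0 to 20.4), at 55.0 CPM in the ATI gate and at 94.4 CPM in the keratin-high gate, with no overlap between any of the intervals. It was therefore 2.80-fold higher in ATI and 4.80-fold higher in keratin-high cells than in ATII cells. Itga6 took another order. It stood at 43.3 CPM in the ATII gate, at 25.3 CPM in the ATI gate and at 118 CPM in the keratin-high gate, which was 2.73-fold over ATII and 4.68-fold over ATI. The ATI over ATII ratio of Itga6 was 0.583 (0.521 to 0.651), the only one of the 6 members past 10 CPM that was below 1, and it passed 2-fold lower under 4 alternative settings.

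Itgb1, the partner chain of these alpha chains, stood at 206 CPM in the ATII gate, 432 CPM in the ATI gate and 527 CPM in the keratin-high gate. Its ratios to the ATII gate were 2.55-fold for keratin-high and 2.09-fold for ATI cells, and the first of these was the smallest of the 8 genes. Relative to the median gene, the log2 ratio of Itgb1 was 0.97 for keratin-high over ATII and 0.69 for ATI over ATII, both under 2-fold. Itgb4, the hemidesmosome chain, stood at 18.7 CPM in the keratin-high gate (573 UMIs), 3.75 CPM in the ATI gate (50 UMIs) and 0.737 CPM in the ATII gate (119 UMIs). The keratin-high level was 25.4-fold the ATII level (20.8 to 31.2) and 4.99-fold the ATI level. The log2 ratio of Itgb4 for keratin-high over ATII, 4.67, ranged from 4.28 relative to the median gene to 6.33 without the 1% of cells with the most Itgb4 UMIs, an alternative chosen after the values were seen. Shares of cells with an Itgb4 UMI in the ATII and ATI gates, given with the other shares, were not told apart from background, so the size of these folds is not firm. By level, the ATI interval of 2.78 to 4.94 CPM lay above the immune limit of 1.72 CPM. It overlapped the fibroblast interval of 0.729 to 3.74 CPM, and the ATII level lay under the immune limit.

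Of the genes for the Itgav receptors, Itgav had its highest level in the keratin-high gate, while Itgb6 was alike in ATI and keratin-high cells. Itgav stood at 47.1 CPM in the ATII gate, 77.1 CPM in the ATI gate and 159 CPM in the keratin-high gate. Itgb6 stood at 6.76 CPM in the ATII gate (1092 UMIs) and at close levels in the other gates, 119.5 CPM in ATI cells (114 to 126) and 123 CPM in keratin-high cells (119 to 127). The Itgb6 ratio of keratin-high over ATI was 1.03 (0.971 to 1.09), and against the ATII gate both were far higher, by 18.2-fold and 17.7-fold. Itgb5 was low in all 3 gates, at 4.87 CPM in ATII, 15.7 CPM in ATI and 13.1 CPM in keratin-high cells, and the ATI and keratin-high intervals overlapped. In the reference gates Itgb5 reached 275 CPM in fibroblasts and 82.9 CPM in immune cells, and Itga6 reached 448 CPM in endothelial cells. The 1129 cells with Sftpc at least 500, Hopx from 2 to 15 and Krt8+Krt18 under 50 had 32.6 CPM of Itgb6 and 31.1 CPM of Itga3, between the ATII and ATI levels, and 1.34 CPM of Itga2.

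Shares of cells with a UMI were compared at equal depth. After each cell was thinned to 5000 UMIs, which left out 203 ATII, 115 ATI and 93 keratin-high cells, Itga2 was seen in 23.5% of keratin-high cells (21.0 to 26.1, exact binomial), 0.724% of ATII cells and 0.595% of ATI cells. Without thinning these shares were 34.6%, 2.08% and 1.88%. In the immune gate (median 23684 UMIs before thinning) 1 of 68 thinned cells had an Itga2 UMI, a share of 1.47% (0.0372 to 7.92). Without thinning it was 1 of 78 (1.28%, 0.0325 to 6.94), and in fibroblasts it was 6.64% (3.84 to 10.6). The ATII and ATI shares lay above the immune share without thinning and below it after thinning, within its interval both times, so with 1 immune cell they were not told apart from background. Itgb6 was seen in 3.29% of ATII, 37.7% of ATI and 40.1% of keratin-high cells, and in 0 of 68 immune cells, which allows a share of up to 4.41%. In fibroblasts 1 of 183 cells had an Itgb6 UMI (0.546%, 0.0138 to 3.01), and without thinning the Itgb6 shares were 12.3% of ATII cells (11.6 to 13.1), 1 of 78 immune cells (1.28%, 0.0325 to 6.94) and 0.830% of fibroblasts (0.101 to 2.96). The ATII share at full depth was thus above both background shares. Itgb4 was seen in 7.06% of keratin-high, 1.55% of ATI and 0.281% of ATII cells. Its background was 0 of 68 immune cells, which allows up to 4.41%, and 3 of 183 fibroblasts (1.64%), so the ATI and ATII shares of Itgb4 were not told apart from background. Itgb1 was seen in 90.0%, 88.8% and 61.9%. The mean number of the 8 genes seen per thinned cell was 1.20 in the ATII gate, 2.02 in the ATI gate and 2.86 in the keratin-high gate, and at least 4 of them were seen in 1.11%, 7.73% and 31.1% of cells.

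The levels were also read over bins of the keratin sum among all filtered cells, reference gates included. From cells with Krt8+Krt18 under 10 to those with 200 or more per 10000, the level of Itgb6 went from 7.17 to 198 CPM, that of Itgav from 40.5 to 212 CPM, that of Itga3 from 18.2 to 149.7 CPM and that of Itgb1 from 215 to 690.0 CPM. Itga2 went from 1.6 CPM to a highest value of 255 CPM in the bin from 100 to 200, and stood at 206 CPM in the 40 cells above it. Itga6 was 45.8 CPM in the lowest bin and 40.9 CPM in the next, and was higher in each bin above that. Itgb5 stood at 14.4 CPM in the lowest bin, 7.44 CPM in the second and between 11.8 and 15.2 CPM from there on. Without the cells of the reference gates, left out after the values were seen, the lowest bin had 4.48 CPM of Itgb5 and 41.9 CPM of Itga6, and the second 7.33 and 40.9 CPM. The high Itgb5 value of the lowest bin was thus carried by the reference gates. Just outside the gate, in 383 cells from 40 to 50, Itga2 stood at 61.1 CPM, and just inside, in 293 cells from 50 to 60, at 105 CPM. For Itgb6 the values on either side of the border were 89.9 and 89.7 CPM.

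**Figure D2:**
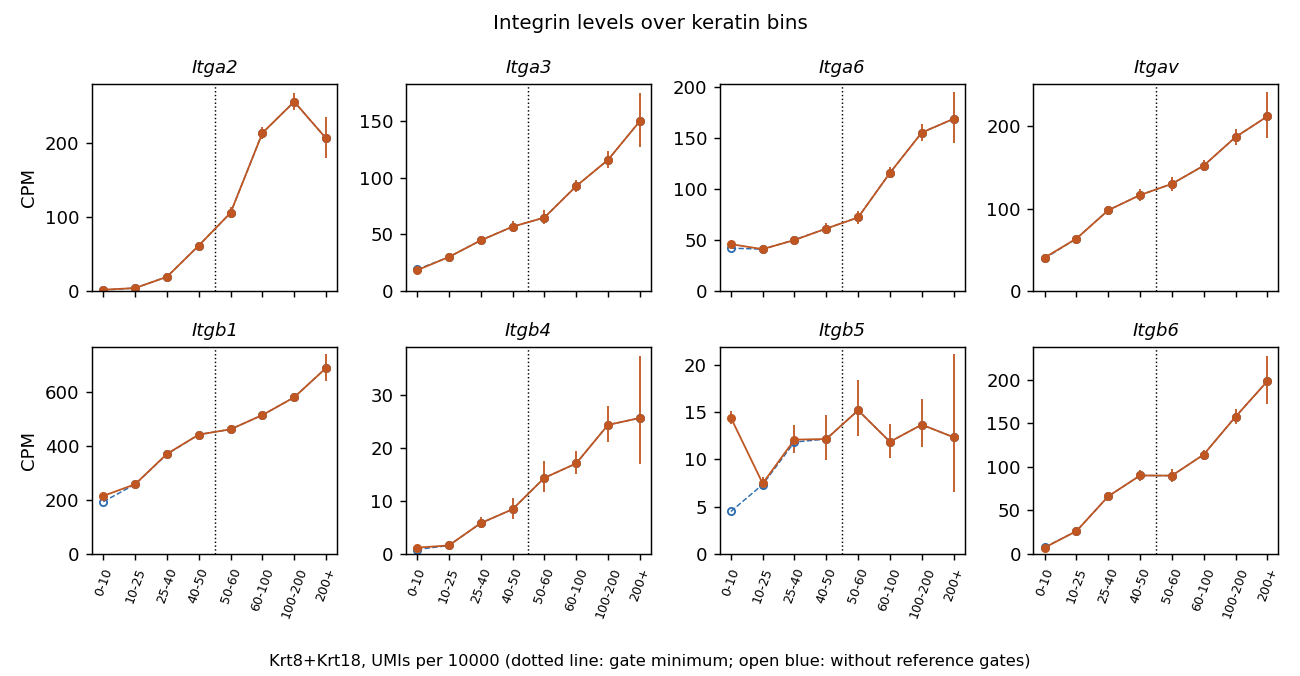
Level of each integrin gene in CPM (linear axis from 0) over bins of Krt8+Krt18 in UMIs per 10000 among all filtered cells, with exact Poisson 95% intervals; the dotted line is the gate minimum and open blue points leave out the reference gates. Itgb6 stands at 7.17 CPM in the lowest and 198 CPM in the highest bin, and Itgb5 in the lowest bin is 14.4 CPM with and 4.48 CPM without the reference gates.

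Within the keratin-high gate the integrins divided by the level of Hopx, a gene of ATI cells that the gate did not use. Itga2 stood at 253 CPM in the 833 cells with Hopx under 5, at 19.4 CPM in the 223 cells from 5 to 15 and at 0.936 CPM (2 UMIs) in the 127 cells at 15 or more. The ratio of the first to the last was 270.5, with a counting interval of 74.9 to 2234. The last level lay within the immune interval of 0.0145 to 3.19 CPM, so the size of this fold is not firm. After thinning to 5000 UMIs, Itga2 was seen in 32.0% and 4.85% of cells and in 0 of 115, which allows up to 2.61%. Itga6 followed, at 140.1, 48.2 and 30.4 CPM (4.60-fold), and in 40.3%, 23.3% and 12.2% of thinned cells. Itgb4 was 20.4, 14.4 and 8.90 CPM (2.30-fold, 1.45 to 3.85). Its share of thinned cells was 7.15% (5.43 to 9.21), 6.80% (3.765 to 11.1) and 6.96% (3.05 to 13.25). These intervals overlap, and the last is too wide to show whether the share falls as the level does. Itga3 was 100.2 against 57.6 CPM and Itgav 166 against 123 CPM in the first and last of these, both under 2-fold. Itgb1 stood at 522, 545 and 544 CPM, with an interval of the ratio that held 1. Itgb6 was 107 CPM where Hopx was under 5 against 184 and 169 CPM, and was seen in 36.8% (33.4 to 40.3), 49.5% (42.5 to 56.6) and 45.2% (35.9 to 54.8) of thinned cells, where the intervals of the first and last overlapped. Itgb5 was 11.8, 15.6 and 22.0 CPM (47 UMIs in the last), but its thinned shares of 6.89%, 6.31% and 7.83% had overlapping intervals, so no order was read for it. Krt8 itself was 4666 CPM in the cells with Hopx under 5 and 3933 CPM in those at 15 or more, and the median UMIs of a cell were 26669 and 15598. Their part in these differences was not tested.

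**Figure D3:**
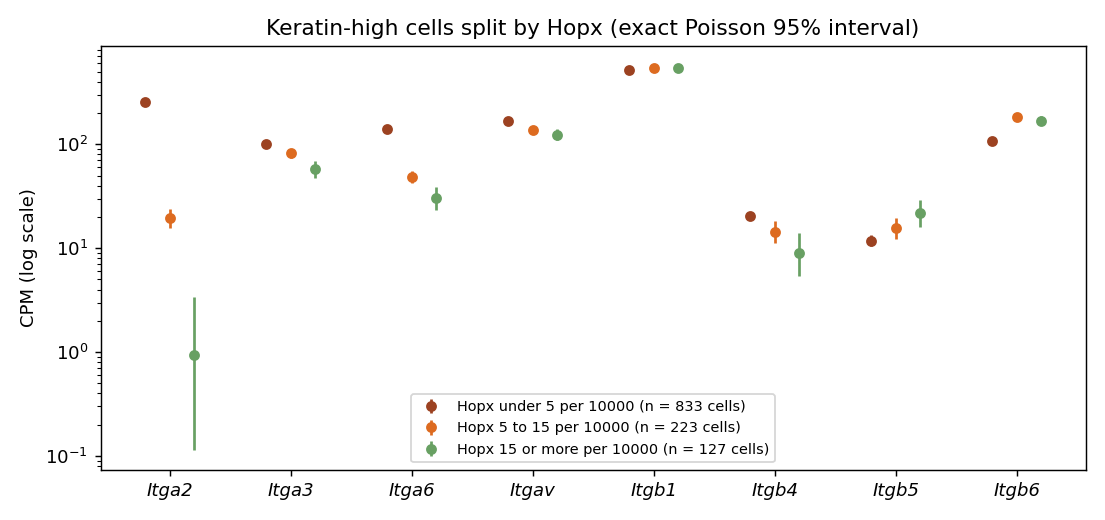
Level of each integrin gene in CPM (log scale) in keratin-high cells split by Hopx, with exact Poisson 95% intervals. Itga2 stands at 253 CPM in the lowest and 0.936 CPM in the highest Hopx group, while Itgb1 lies at 522 to 545 CPM and the Itgb6 level is higher where Hopx is 5 or more.

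Partner and non-partner chains were also counted in the same cells. Of 1090 thinned keratin-high cells, 256 had an Itga2 UMI and 372 an Itga6 UMI, and 143 had both, where the product of the 2 shares gives 87.4. In the cells with Hopx under 5 alone the count was 139 against 99.2 from the product, a ratio of 1.40. Itga2 and Itga3 were seen together in 114 cells against 82.2 from the product. Itga2 and Itgb6, also no receptor pair, shared 110 cells against 103. Of the receptor pairs, Itgav and Itgb6 shared 258 cells against 228, Itga6 and Itgb4 33 against 26.3, and Itgav and Itgb5 39 against 39.1. In the cells with Hopx under 5 the non-pair Itga2 and Itgb6 had a ratio of 1.13 to the product. The receptor pairs there had 1.13 for Itgav and Itgb6, 1.17 for Itga6 and Itgb4 and 0.99 for Itgav and Itgb5. Itgb1 was seen in 981 of the 1090 cells, so its counts with any partner could not lie far above the product. Of the cells with an Itga2 UMI, 94.1% also had an Itgb1 UMI, against 90.0% of all keratin-high cells. These counts are of cells of a pooled sample that differ in type and depth, and are given as a description.

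Cells were then compared by the state of the trap in their own transcripts. GFP-positive cells had at least 1 GFP UMI and no Stk11 UMI, and Stk11-positive cells the reverse. These are gates on cells and not the groups of mice. Left out were 29 filtered cells with both and every cell with a UMI of neither. GFP-positive cells were 27.6% and Stk11-positive cells 27.6% of the filtered cells. Their median UMIs were 24516 and 23635, against 19348 in all filtered cells. Over all filtered cells, 3360 GFP-positive and 3367 Stk11-positive cells were compared, with 7 members past 10 CPM. Itgav was 92.0 CPM in GFP-positive and 45.5 CPM in Stk11-positive cells, 2.02-fold (1.95 to 2.10), the only member called. It was higher, where 2.61% of all genes were higher and 1.39% lower. The median log2 ratio of all genes was 0.22, and relative to it Itgav was at 0.80 and no member was called. Itga2 was 46.7 against 23.9 CPM (1.95-fold, 1.85 to 2.06), Itgb6 45.2 against 27.7 CPM (1.63-fold, 1.55 to 1.72) and Itgb5 7.97 against 11.9 CPM (ratio 0.670, 0.608 to 0.738). The makeup of the groups differed: 642 keratin-high cells were GFP-positive and 165 Stk11-positive, while the ATII gate had 1742 and 2353 and the ATI gate 242 and 266. Krt8 was 1700.0 CPM against 631 CPM. The fibroblast gate had 1 GFP-positive and 48 Stk11-positive cells, the immune gate 3 and 16 and the endothelial gate 2 and 20. Itgb5 was 275 CPM in fibroblasts and 82.9 CPM in immune cells, and their part in its ratio was not tested. The Itgb5 ratio was 1.01 (0.846 to 1.20) in the ATII gate, with under 10 CPM in both groups. It was 0.666 in the ATI gate and 0.723 (0.556 to 0.949) in the keratin-high gate.

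Within the gates the direction of Itga2 turned in the keratin-high gate, with a ratio of 0.617 (0.580 to 0.656). Its ratio was 0.452 in the ATII gate (63 and 184 UMIs) and 0.723 (0.181 to 2.65) in the ATI gate (5 and 7 UMIs). Both rest on levels under 10 CPM that were not told apart from background, so no direction was read there. Itgb6 turned in the keratin-high gate (0.637), and its ratios of 1.06 (0.915 to 1.23) in the ATII and 1.10 (0.969 to 1.24) in the ATI gate had intervals that held 1. In the ATII gate 4 members passed 10 CPM and none was called, where 1.96% of genes were higher and 0.558% lower. Itgav was again furthest from 1 among the 4, at 61.2 CPM in GFP-positive and 35.1 CPM in Stk11-positive cells (1.75-fold, 1.65 to 1.85), against a median log2 ratio of all genes of 0.18. Krt8 in the same cells was 694 against 353 CPM. In the cells of the ATII gate with Krt8+Krt18 under 10, 693 GFP-positive and 1805 Stk11-positive, the log2 ratio of Itgav was 0.57, beside 0.80 in the whole gate. In the ATI gate 6 members passed and none was called, where 1.54% of genes were higher and 1.08% lower. Itgb5 was furthest from 1 among the 6, at 11.9 against 17.9 CPM (ratio 0.666, 0.460 to 0.957, from 52 and 79 UMIs), and Itgav was 91.2 against 62.3 CPM (1.46-fold, 1.25 to 1.71). The other 4 had intervals that held 1.

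In the keratin-high gate all 8 members passed 10 CPM, none was called higher and 1 was called lower, where 2.46% of genes were higher and 2.34% lower. The called gene was Itgb4, at 10.8 CPM in GFP-positive (214 UMIs in 642 cells) and 47.2 CPM in Stk11-positive cells (219 UMIs in 165 cells), a ratio of 0.228 (0.188 to 0.277). The Itgb4 ratio was also below 1 over all cells (0.693, 0.595 to 0.806), in the ATII gate (0.377, 0.210 to 0.645) and in the ATI gate (0.562, 0.232 to 1.28), all with under 10 CPM in both groups. The ATI ratio, from 10 and 18 UMIs, turned above 1 after thinning to 5000 UMIs. Thinned Itgb4 shares of the ATII and ATI gates were not told apart from background, so these 2 ratios add little. In the thinned keratin-high gate, an Itgb4 UMI was seen in 27 of 634 GFP-positive cells (4.26%, 2.83 to 6.14) and in 26 of 163 Stk11-positive cells (16.0%, 10.7 to 22.5). Itga2 was 188 against 304 CPM (ratio 0.617) and Itgb6 108 against 170.4 CPM (ratio 0.637), both under 2-fold. The ATII levels behind the Itga2 ratio of 0.452 (0.334 to 0.604) were 1.33 against 2.94 CPM. Itgav was 158 against 132 CPM, Itgb1 523 against 534 CPM and Itga3 94.1 against 102 CPM. In the keratin-high cells with Hopx under 5, 470 GFP-positive and 112 Stk11-positive, the log2 ratio was -2.24 for Itgb4 and -0.66 for Itga2, beside -2.13 and -0.70 in the whole gate. With no link from cells to mice, a difference between cells and a difference between animals cannot be told apart here.

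**Figure D4:**
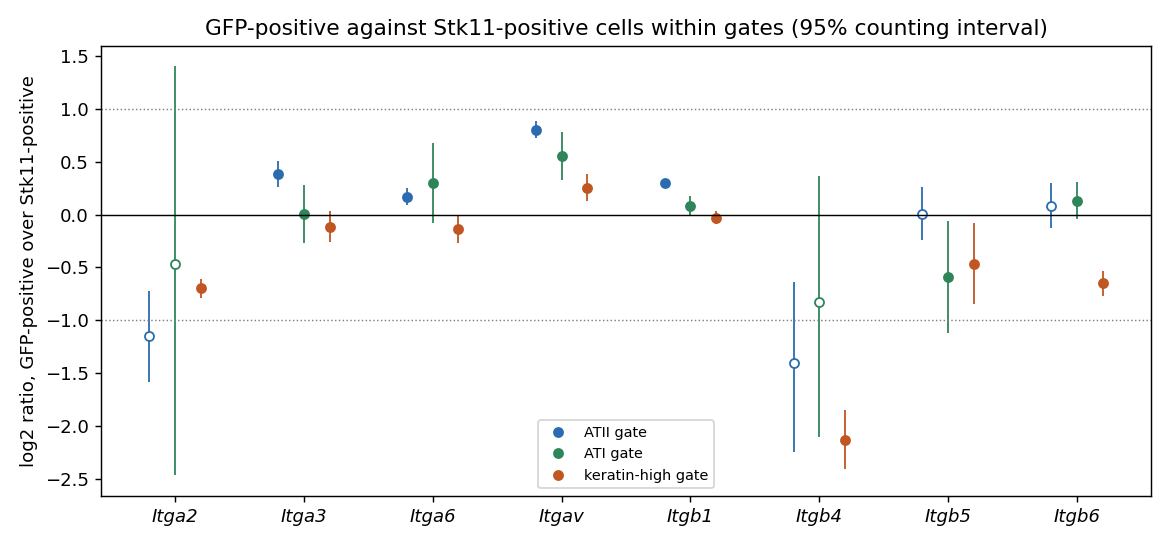
Log2 ratio of GFP-positive over Stk11-positive cells for each integrin gene within the ATII, ATI and keratin-high gates, with 95% counting intervals; filled points have at least 10 CPM in either group, open points less, and dotted lines mark 2-fold. Itgb4 in the keratin-high gate, at -2.13, is the only filled point past 2-fold, and Itgav lies above 0 in all 3 gates.

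Other genes of integrin adhesion were taken from lists of subunits, adaptors, hemidesmosome and tetraspanin genes, and ligands. Of 18 other integrin subunits only 3 reached 10 CPM in the keratin-high or ATII gate, and 0 were at least 2-fold higher and 2 lower in keratin-high cells, beside 14.5% and 5.17% of all genes. Those 2 were Itga1, another collagen-binding partner of Itgb1, at 3.23 against 11.1 CPM, and Itga7, a laminin-binding chain, at 7.56 against 23.1 CPM. Itga9 was 70.5 against 127 CPM. Itgb3, another partner of Itgav, was 13.2 CPM in the ATI gate and 1.21 CPM in the ATII gate. Itga1 lies close to Itga2 on chromosome 13, and the ratio of keratin-high over ATII was 0.290 for Itga1 and 92.4 for Itga2.

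Of 21 adaptors, which link integrin tails to actin, 17 reached 10 CPM in keratin-high or ATII cells, and 7 of them were at least 2-fold higher and none lower in keratin-high cells, beside 14.5% and 5.17% of all genes. Flna was 243 against 32.6 CPM, Zyx 75.9 against 14.2 CPM, Actn1 305 against 67.6 CPM and Vcl, which codes for vinculin, 105 against 28.6 CPM. In the ATI gate 11 of 18 were higher and none lower, beside 11.5% and 5.52% of all genes, with Lims2 at 19.0 against 0.105 CPM. The median log2 ratio of the adaptors was 0.97 for keratin-high and 1.14 for ATI over ATII, beside 0.39 and 0.38 over all genes. Of the 9 hemidesmosome and tetraspanin genes 6 were measured at that level, with a median log2 ratio of 1.26, and 4 were higher in keratin-high cells, beside 14.5% of all genes. They were Cd151, a tetraspanin that binds laminin-binding integrins, at 255 against 62.8 CPM, Plec, which codes for plectin and links Itgb4 to keratin, at 185 against 45.6 CPM, Cd9 at 2186 against 890.0 CPM and Cd81 at 1057 against 453 CPM. In the ATI gate 4 of 6 were higher and none lower than in ATII cells, beside 11.5% and 5.52% of all genes. Cd151 was 178 CPM and Cd81 1262 CPM there. Between keratin-high and ATI cells 0 of 6 were higher or lower, beside 6.23% and 4.18% of all genes. Col17a1, Krt5 and Krt14, known from the hemidesmosomes of basal cells, did not reach 10 CPM in any of the 3 gates.

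Of the 18 ligand genes 13 reached 10 CPM in keratin-high or ATII cells, and 8 were higher and none lower in keratin-high cells, beside 14.5% and 5.17% of all genes. Their median log2 ratio was 1.25, beside 0.39 over all genes. In the ATI gate 7 of 12 were higher and none lower than in ATII cells, beside 11.5% and 5.52% of all genes. The median log2 ratio there was 1.20, beside 0.38. Between keratin-high and ATI cells 2 of 13 were higher and 2 lower, beside 6.23% and 4.18% of all genes. Lama3, a laminin chain and ligand of Itga3 and Itga6 receptors, was 97.3 CPM in keratin-high, 77.4 CPM in ATI and 3.34 CPM in ATII cells. Tgfb2 was 17.0, 42.1 and 1.31 CPM in the same gates. Fn1, which codes for fibronectin, was 411 CPM in keratin-high and 67.0 CPM in ATII cells, and Spp1, which codes for osteopontin, was 31.8 against 4.77 CPM. Between GFP-positive and Stk11-positive keratin-high cells, 1 of 13 ligand genes and 2 of 18 adaptors were called lower and none higher, beside 2.34% and 2.46% of all genes. In the ATII gate 1 of 10 ligand genes and 1 of 17 adaptors were higher and none lower, beside 1.96% and 0.558%. In the ATI gate 1 of 12 ligand genes was higher and 1 of 18 adaptors lower, beside 1.54% and 1.08%. Over all cells 1 of 13 ligand genes and 1 of 17 adaptors were higher and 2 ligand genes lower, beside 2.61% and 1.39%.

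**Figure D5:**
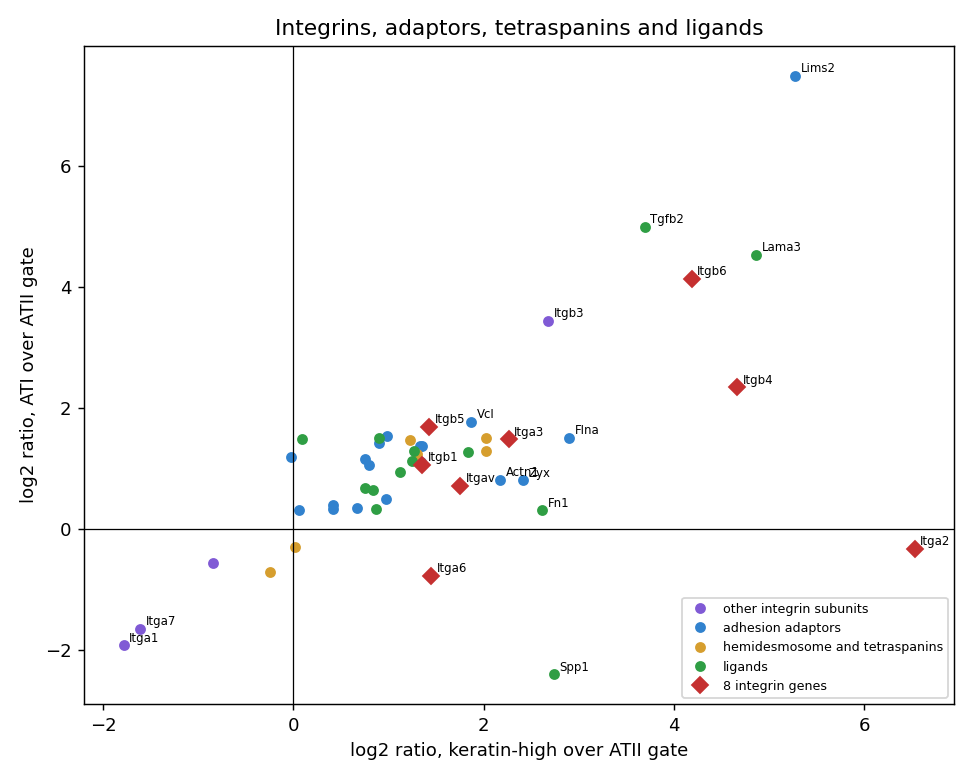
Log2 ratio of keratin-high over ATII (horizontal) and of ATI over ATII (vertical) for the 8 integrin genes (diamonds) and the genes of 4 lists with at least 10 CPM in a compared gate (circles); both axes share the ATII gate. Itga2 lies at 6.53 and -0.33, Itgb6 at 4.19 and 4.14, and Itga1 and Itga7 are below 0 on both axes.

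For each member the genes of most similar pattern were found by Pearson correlation of log2(CPM + 1) over 7 groups of epithelial cells (the ATII and ATI gates, the cells of moderate Hopx, 3 keratin bins of the keratin-high gate and all other cells) among 7078 genes with at least 20 CPM in a group. The groups are from the same libraries, and with 7 points many genes reach a high value. The correlation does not measure the size of a change. Itga2 ran from 1.34 to 255 CPM over the groups, and Mrps18c, named next, from 49.2 to 60.1 CPM. Ier5, Cotl1 and Mrps18c were nearest to Itga2 (r from 0.995 to 0.996), Ptgs2os2, Slc2a1 and Baiap2l1 to Itga6 (0.996 to 0.998), and Lactb, S100a11 and Ebna1bp2 to Itga3 (0.999). Pdgfb, Sh3d19 and the laminin gene Lama3 were nearest to Itgb6 (0.996 to 0.998), Dusp10, Arhgef40 and Naaa to Itgav (0.997), and Tpd52l2, Ccdc124 and Map7d1 to Itgb1 (0.999). Mrto4, Prkcsh and Gtpbp4 were nearest to Itgb4 (0.997 to 0.999), and Casz1, Mcrs1 and Cyld to Itgb5 (0.99). Among the members, Itgav and Itgb4 were most alike (0.995) and Itga6 and Itgb5 least (0.343).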

How the data were processed

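Whole UMI counts per gene and cell, as the authors deposited them, were used, and the authors had not normalized them. Per the file headers and the submitters' processing notes, the authors counted UMIs with Cell Ranger 3.0.2 on mm10, to which sequences for GFP and TdTomato were added. The annotation release is not given in the sources used here. Cells with at least 500 genes and at most 20% mitochondrial UMIs were kept. UMIs were summed per gate and given as CPM, with 95% intervals for counting error only: exact Poisson for a level, exact conditional binomial for a ratio, and Clopper-Pearson for a share. A limit of 3 counts was set where a count was 0. A gene counted as higher or lower past a 2-fold ratio with at least 10 CPM in either gate. Doublets were kept and no caller was run. The 3′ counts do not separate splice forms.

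All 8 members are named. From each list, the text names up to 4 genes with the largest log2 ratio of keratin-high over ATII and up to 2 by ATI over ATII, and 3 genes of most similar pattern per member. The members, gates, lists and alternatives were chosen with earlier results of these data known. List genes outside this rule are only counted, except Col17a1, Krt5 and Krt14, named for their role. GENCODE M21 gene IDs matched 30934 of 31055 features (99.6%). The ratio step was tested on simulated data. The tools were scipy 1.17.1, numpy 2.4.6, pandas 2.3.3, matplotlib 3.10.9 and Python 3.11.15. An allele that all mice shared is not reported here.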

Additional observations from a re-analysis of the deposited data

Results flagged for a closer look

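The 3834 cells outside the filter, which enter no comparison, still held integrin UMIs. The 8 integrin genes together stood at 260.1 CPM there (2484 UMIs), and at 524 CPM in the 12183 filtered cells. The cells outside the filter had a median of 1915 UMIs and 42.5% mitochondrial UMIs.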

How the results depend on the processing

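No paired analysis was possible because the files used here tie no cell to a mouse, and no replicate could be left out. Of 144 recomputed counts of members past 2-fold, 137 stayed within 1.5 times the reported count. The count lower in ATI than in ATII cells, 0 as reported, was 1 (Itga6) with a Hopx minimum of 30, with CPM that left out surfactant, lysozyme and gate genes, relative to the median gene, and with equal weight per cell. The count higher in GFP-positive than in Stk11-positive cells over all filtered cells, 1 as reported, was 0 relative to the median gene and 2 (Itga2 and Itgav) without the 1% of cells with the most UMIs of each gene, an alternative chosen after seeing the data. The count lower in GFP-positive keratin-high cells, 1 as reported, was 2 (Itgb4 and Itgb5) after thinning to 5000 UMIs. The causes were not tested. Of 528 recomputed ratios of single members, 384 moved by no more than their interval, 144 moved further and 0 reversed a called direction. Of the log2 ratios of single members, 22 of 24 between gates and 21 of 32 between GFP-positive and Stk11-positive cells kept their sign under all alternatives run. The exceptions between gates were Itga2 for ATI over ATII and Itgb6 for keratin-high over ATI. For keratin-high over ATII the log2 ratio ranged from 6.14 to 8.47 for Itga2, from 4.28 to 6.33 for Itgb4, from 3.80 to 4.58 for Itgb6 and from 0.97 to 1.52 for Itgb1.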

Other observations

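The 1499 filtered cells in none of the gates formed a mixed group with low depth (median 8402 UMIs). Their integrin levels were 48.3 CPM for Itga2, 61.8 CPM for Itga3, 64.4 CPM for Itga6, 122 CPM for Itgav, 387 CPM for Itgb1, 10.6 CPM for Itgb4, 13.5 CPM for Itgb5 and 81.8 CPM for Itgb6. Each level lay between the ATII and the keratin-high level of the same gene except that of Itgb5, which was just above its keratin-high level of 13.1 CPM. Endothelial cells, which the sort on CD31 was set to remove, had 448 CPM of Itga6 and 26.8 CPM of Itgb4 in 126 cells. Their Itga6 level was above that of the keratin-high gate, at 118 CPM. Fibroblasts had 743 CPM of Itgb1 and 275 CPM of Itgb5 in 241 cells, both above the levels of every epithelial gate.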
